A study of Homo sapiens with 18 samples.

Results

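Kinesins are motor proteins that walk along microtubules, or take them apart, with energy from ATP. The 40 protein-coding genes whose symbol is KIF or KIFC, a number and at most 1 letter from A to C were examined here, out of 25296 genes in the deposited count table. By known role they were split into 7 mitotic kinesins (KIF11, KIF20A, KIF23, KIF2C, KIF4A, KIF14 and KIF18A), 8 other kinesins of cell division, 17 kinesins of intracellular transport and 8 remaining members. KIF2B and KIF12, whose symbols have the same form, were not among the protein-coding genes of the count table and so were not analysed here. A filter on low counts left 39 members to test; KIF25, with 28 counts summed over all libraries, was not tested.

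Cytarabine responses of cells with mutant DNMT3A, a DNA methyltransferase, were the subject of the study. RNA was sequenced in 18 libraries from U2OS, an established human osteosarcoma line, in which a retroviral vector brought in nothing (the empty vector MigR1, line EV), the wild-type enzyme (line WT) or a mutant enzyme (line MUT). The mutation is R882C in the series text and R882H in the sample labels. Cells of every line were either left untreated, which the series text calls vehicle, or kept for 24 h in 10 µM cytarabine, a nucleoside drug that blocks DNA synthesis, giving 6 groups of 3 biological replicates. All groups share the U2OS background and its own DNMT3A gene, and whether a line is 1 clone is not given in the sources used here.

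Library totals ran from 15.4 to 21.9 M estimated counts. DNMT3A, which checks the labels, had 26.9 ± 0.662 CPM (counts per M counts of the scaled library; SD, n = 3) without treatment in EV, 133 ± 5.17 in WT and 456 ± 185 in MUT. Replicates of untreated MUT differed from each other most: the chi-square per degree of freedom across genes was 23.2 to 51.4 between them and 2.51 to 16.5 between replicates of the other groups. Of 9 markers of bone-forming cells and osteosarcoma, 8 were in the table, all 8 with a median of at least 1 CPM. All 3 neuronal, 2 of 3 endothelial and 2 of 4 epithelial markers also had a median of at least 1 CPM. The neuronal markers RBFOX3, SNAP25 and SYT1, none at 0, summed to 12.3 to 15.1 CPM before and 17.7 to 23.0 CPM after treatment in EV, to 5.25 to 7.64 and 10.4 to 12.5 in WT and to 3.96 to 6.92 and 9.77 to 13.1 in MUT. P-values measure only the spread between replicates, 3 a group. In the main fit it was estimated per gene over all 18 libraries together, so the larger spread of untreated MUT was not kept apart.

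Kinesins of division build and shorten the spindle, move chromosomes and complete cytokinesis, and many are made mainly late in the cell cycle. Transport kinesins carry vesicles, mitochondria, RNA and proteins; some are present in nearly all cells and others mostly in neurons. Promoters of genes of the late cell cycle often hold a cell cycle homology region, such as TTTGAA or TTTAAA, that MuvB complexes bind, next to CCAAT boxes, which NF-Y binds.

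These letters were searched on both strands in RefSeq promoter windows of build GRCh38.p14, from 250 bases before to 50 after each listed start. Of the 40 members, 32 matched, with 40 windows. TTTGAA was in 5 of 7 mitotic genes, 5 of 8 other division genes (KIF15, KIF18B, KIF20B, KIF4B and KIFC1), 1 of 12 transport genes (KIF5B) and 0 of 5 remaining genes, against 15.2% of the 35116 windows of all genes. CCAAT was in 6 of 7, 6 of 8, 4 of 12 and 1 of 5, against 34.6% of all windows. Both were in 5 of 7, 4 of 8, 1 of 12 and 0 of 5, against 5.90%. TTTAAA, in 12.2% of all windows, was in 4 of 7 mitotic genes, 0 of 8 other division genes, 1 of 12 transport genes and 0 of 5 remaining genes. Each motif was counted separately, and a match describes letters only, not a bound site.

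The 5 mitotic promoters with TTTGAA are shown because in each of them it lies close to the start and downstream of CCAAT. Each line holds 100 bases on the gene's strand, 5′ to 3′, up to the base before the RefSeq start, except that KIF14 is shown from 92 bases before to 8 after it. Capitals mark the 3 motifs on either strand, so TTCAAA and ATTGG are TTTGAA and CCAAT of the other strand. The positions are chr10:92593030-92593129 (KIF11, plus strand), chrX:70290004-70290103 (KIF4A, plus), chr15:69414249-69414348 (KIF23, plus), chr11:28108157-28108256 (KIF18A, minus) and chr1:200620744-200620843 (KIF14, minus).
KIF11: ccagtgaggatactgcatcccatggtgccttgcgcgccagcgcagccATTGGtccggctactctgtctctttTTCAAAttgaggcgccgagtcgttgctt
KIF4A: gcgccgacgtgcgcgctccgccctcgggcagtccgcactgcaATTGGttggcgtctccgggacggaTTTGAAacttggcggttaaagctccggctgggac
KIF23: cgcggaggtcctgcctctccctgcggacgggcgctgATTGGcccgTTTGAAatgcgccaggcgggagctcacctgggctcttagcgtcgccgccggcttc
KIF18A: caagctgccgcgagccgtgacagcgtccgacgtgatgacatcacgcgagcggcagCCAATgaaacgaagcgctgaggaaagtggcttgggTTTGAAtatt
KIF14: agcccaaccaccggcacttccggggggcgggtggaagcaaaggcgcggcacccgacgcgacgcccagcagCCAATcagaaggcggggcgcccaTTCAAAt

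TTTGAA began 28 bases before the start in KIF11, 34 in KIF4A, 55 in KIF23 and 10 in KIF18A, and at base 2 after it in KIF14. The other mitotic genes are shown because they hold TTTAAA in its place: KIF20A (chr5:138179012-138179111, plus) 41 bases before the start, downstream of 2 CCAAT boxes, and KIF2C (chr1:44739745-44739844, plus, from 92 bases before to 8 after the start) 3 bases before it, with no CCAAT.
KIF20A: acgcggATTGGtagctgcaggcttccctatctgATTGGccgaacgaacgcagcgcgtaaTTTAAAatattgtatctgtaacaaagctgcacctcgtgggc
KIF2C: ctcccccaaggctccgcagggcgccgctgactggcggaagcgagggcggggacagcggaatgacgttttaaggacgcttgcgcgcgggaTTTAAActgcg

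Of the transport genes, 3 are shown for contrast: KIF5B (chr10:32056471-32056570, minus, from 145 to 46 bases before the start), which holds TTTGAA 140 bases before the start, and KIF3C (chr2:25982498-25982597, minus) and KIF17 (chr1:20718008-20718107, minus), which hold none of these motifs.
KIF5B: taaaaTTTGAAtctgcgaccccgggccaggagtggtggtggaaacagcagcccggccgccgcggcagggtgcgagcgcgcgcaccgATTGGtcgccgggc
KIF3C: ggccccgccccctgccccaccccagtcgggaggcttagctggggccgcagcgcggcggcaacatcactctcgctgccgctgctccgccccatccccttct
KIF17: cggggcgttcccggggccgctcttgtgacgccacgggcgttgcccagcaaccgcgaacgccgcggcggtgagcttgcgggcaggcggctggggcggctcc

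Without treatment, division and transport kinesins were mixed over the range of levels. Highest per length of exon in EV were KIF2C, a microtubule depolymerase of centromeres, with 51.2 ± 0.925 CPM per kb of exon (SD, n = 3), KIF5B, the widely expressed kinesin-1 heavy chain, with 49.6 ± 0.798, and KIF1C, a vesicle motor, with 47.8 ± 0.656. KIF2C and KIF5B overlapped, so their order is not settled. KIF23 (37.1 ± 0.325), KIFC1 (35.5 ± 0.576), KIF4A (27.4 ± 1.33), KIF3B (26.4 ± 0.731) and KIF11 (21.9 ± 0.268 CPM per kb) came next, of which KIF4A and KIF3B overlapped. The neuron-enriched KIF1A, KIF5A and KIF5C were low, at 1.05 ± 0.131, 0.640 ± 0.0580 and 0.495 ± 0.0509 CPM per kb. Lengths are the union of all GENCODE exons of a gene, 33151 bases for KIF5C, so a gene with long, rarely used exons has a low value on this scale. KIF1C was highest in untreated WT (51.4 ± 2.07 CPM per kb). In untreated MUT, KIF2C (62.0 ± 5.20) and KIF1C (46.7 ± 9.17) had the highest means, and their libraries overlapped.

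**Figure D1:**
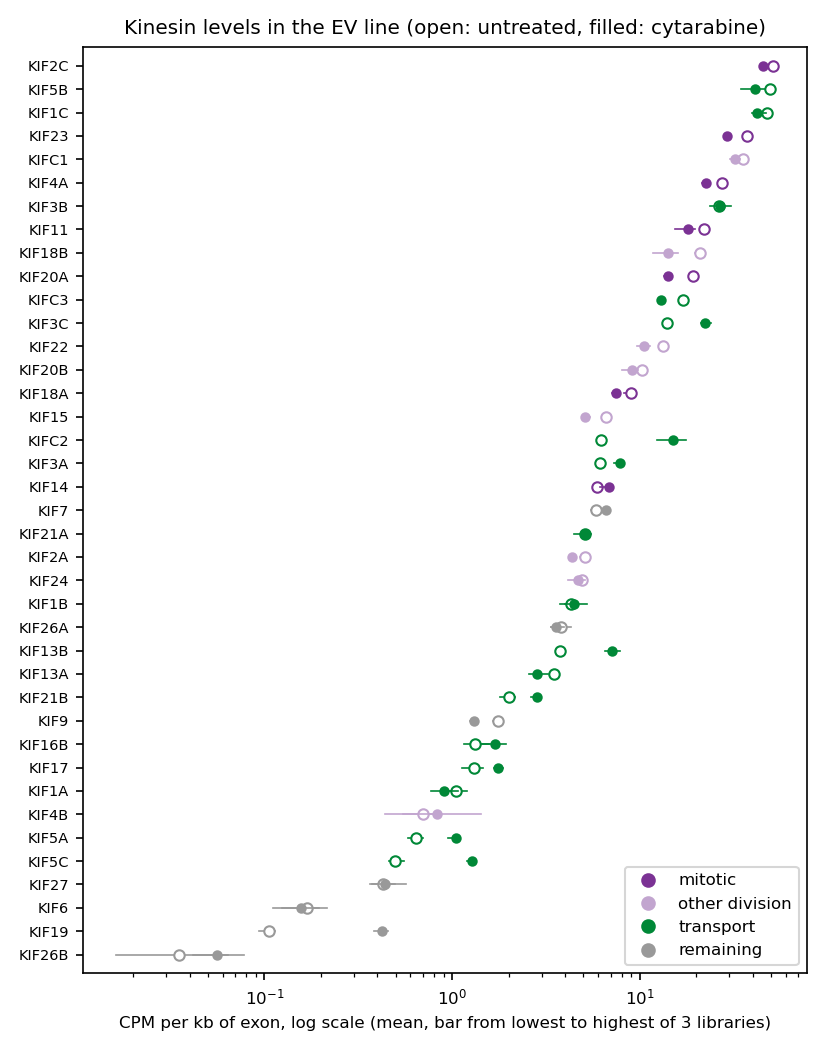
Level of the 39 tested kinesins in the EV line in CPM per kb of exon on a log axis, untreated (open) and after cytarabine (filled), coloured by role; points are means and bars run from the lowest to the highest of 3 libraries. Mitotic and transport genes are mixed at the top, and the mitotic genes except KIF14 are lower after treatment.

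Cytarabine lowered most mitotic kinesins and raised many transport kinesins in each line. By edgeR's quasi-likelihood test, with adjustment after Benjamini and Hochberg over 18226 genes at a threshold of 0.05, 10 members were higher and 13 lower after treatment in EV, 10 and 13 in WT, and 12 and 11 in MUT. The share of all tested genes that passed was 49.1% for EV, 49.0% for WT and 56.3% for MUT, so that 23 called of 39 members is near the background; by direction, the counts were as follows. Of the 7 mitotic kinesins, 6 fell and 1 rose in EV, 5 fell in WT and 6 in MUT, where 22.9%, 22.7% and 25.9% of all genes fell. Of the 17 transport kinesins, 8 rose and 2 fell in EV, 9 and 2 in WT, and 10 and 1 in MUT, where 26.1%, 26.3% and 30.4% of all genes rose.

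The median log2 fold change of EV, WT and MUT was -0.28, -0.38 and -0.34 over the mitotic and 0.35, 0.57 and 0.40 over the transport kinesins, beside 0.05, 0.03 and 0.05 over all genes. The mitotic median minus the transport median was -0.64, -0.95 and -0.75. In all 3 lines alike 8 members rose (KIF13B, KIF17, KIF21B, KIF3C, KIF5A, KIF5C, KIFC2 and KIF19) and 8 fell (KIF11, KIF18A, KIF20A, KIF23, KIF2C, KIF22, KIF2A and KIFC3), where 18.9% and 16.4% of all genes did. A further 13 members passed in 1 or 2 lines and 10 in none, against 31.2% of all genes. In bulk RNA, fewer cells in a phase of the cycle and less RNA per cell cannot be told apart.

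**Figure D2:**
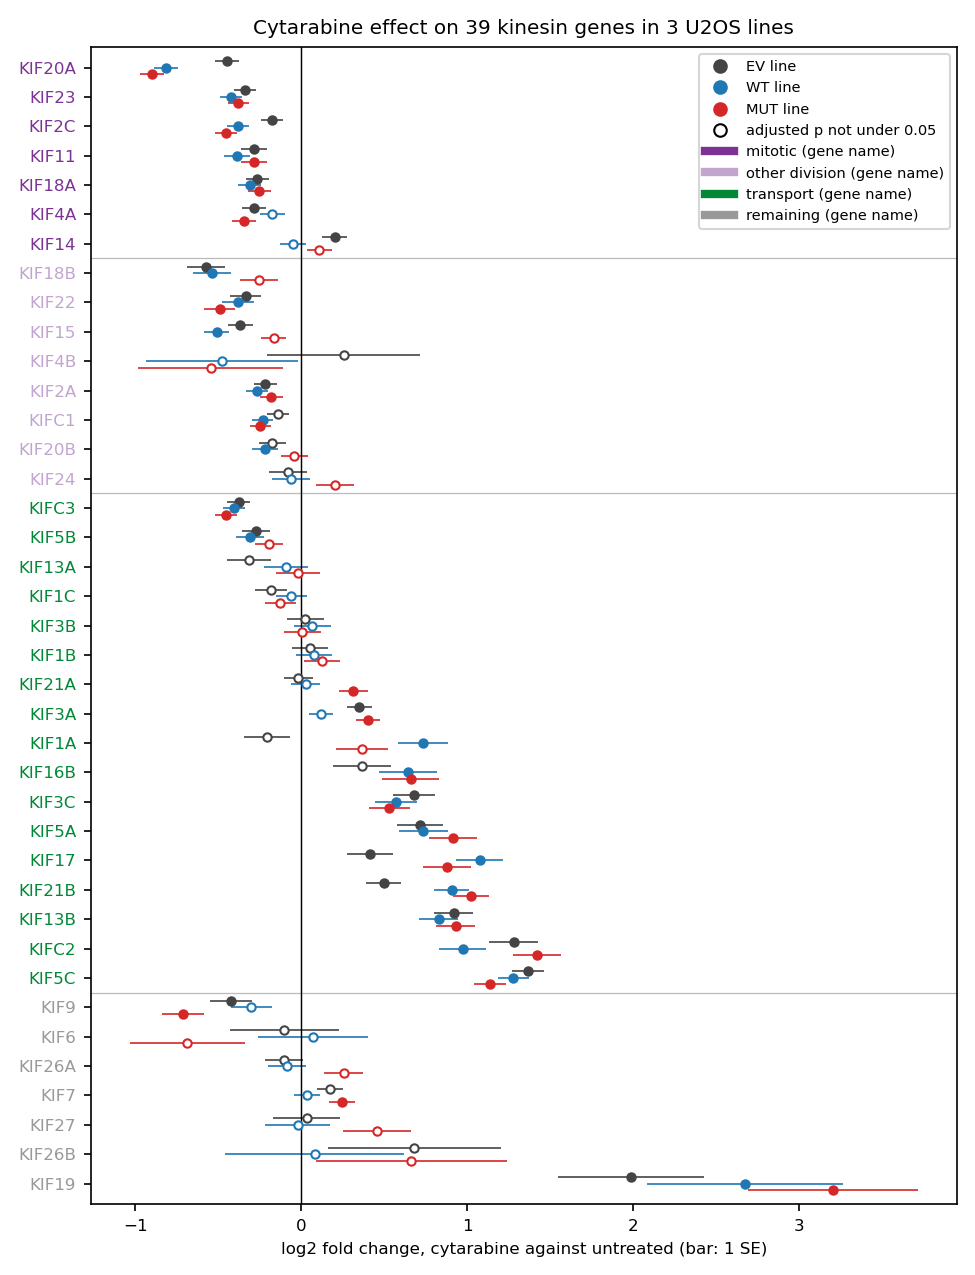
Log2 fold change of cytarabine against untreated for the 39 tested kinesins, with bars of 1 SE, in EV (grey), WT (blue) and MUT (red); filled points passed the threshold. The mitotic genes in the top block lie left of 0 except KIF14, and 7 genes of the transport block lie right of 0 with filled points for all 3 lines.

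KIF20A (chromosome 5, 138178719 to 138187716, plus strand; build hg38, as all gene positions here) brings the chromosomal passenger complex to the central spindle for cytokinesis. Its EV libraries had 75.4, 70.2 and 76.4 CPM untreated and 52.0, 54.6 and 56.3 treated. WT had 63.7, 67.0 and 64.9 untreated and 37.1, 37.4 and 36.8 treated, and MUT 99.5, 95.6 and 85.3 before and 48.6, 46.9 and 54.7 after. Treated and untreated libraries did not overlap in any line, and treated WT was the lowest group. The log2 fold change was -0.45 ± 0.0711 (SE; edgeR adjusted p = 3.46e-05) in EV, -0.81 ± 0.0722 (3.02e-08) in WT and -0.90 ± 0.0707 (4.06e-09) in MUT, the largest fall among the mitotic kinesins in each line.

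KIF23 (chromosome 15, 69414246 to 69448428, plus strand) forms centralspindlin with RACGAP1 and bundles microtubules between the separating chromosomes. In EV it had 246, 245 and 242 CPM without and 185, 191 and 203 with cytarabine. In WT it had 230.1, 231 and 226 before and 173, 176 and 164 after, and in MUT 247, 226 and 266 before and 179, 192 and 198 after CPM. No line overlapped, and the log2 fold changes of -0.34, -0.42 and -0.38 in EV, WT and MUT were close to one another (edgeR adjusted p 0.00028, 2.77e-05 and 6.81e-05).

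KIF11 (chromosome 10, 92593286 to 92655396, plus strand) slides antiparallel microtubules and pushes spindle poles apart. EV libraries had 115, 117 and 117 CPM untreated and 81.7, 105 and 101 treated, WT 109, 109 and 107 before and 86.2, 82.2 and 79.4 after, and MUT 112, 119 and 129 before and 99.6, 96.6 and 99.7 after. Every treated library lay below every untreated one of its line, by log2 fold changes of -0.28 ± 0.0780, -0.39 ± 0.0781 and -0.29 ± 0.0776 (SE; edgeR adjusted p 0.00504, 0.000393 and 0.00415).

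KIF18A (chromosome 11, 28020620 to 28108309, minus strand), which damps chromosome movement at metaphase, had nearly the same levels in the 3 lines, with group means of 40.7, 40.1 and 40.8 CPM untreated and 33.9, 32.3 and 34.2 treated. It fell by 0.26, 0.31 and 0.25 on the log2 scale (edgeR adjusted p 0.00331, 0.000833 and 0.00383).

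KIF2C (chromosome 1, 44739818 to 44767768, plus strand), introduced above, averaged 162 ± 6.76 CPM untreated and 125 ± 3.82 treated in WT (SD, n = 3), and 226 ± 18.9 and 165 ± 7.74 in MUT, log2 fold changes of -0.38 and -0.45 (edgeR adjusted p 9.87e-05 and 1.02e-05). The fall in EV, from 187 ± 3.37 to 165 ± 6.05 CPM, was smaller, at -0.17 (adjusted p = 0.0352). Leaving out any EV library but treated replicate 3 ended that call, in 5 of 6 cases, with adjusted p up to 0.0953.

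KIF4A (chromosome X, 70290090 to 70420833, plus strand) is a chromokinesin that shapes mitotic chromosomes and, with PRC1, the central spindle. EV libraries had 119.8, 132 and 125 CPM untreated and 98.1, 108 and 103 treated, and MUT libraries 135, 167 and 139 before and 114, 115 and 118 after, log2 fold changes of -0.28 and -0.34 (edgeR adjusted p 0.00363 and 0.000594). WT had 123, 113 and 117 before and 105, 107 and 101 after CPM, again without overlap, but its change of -0.17 ± 0.0742 did not pass (adjusted p = 0.0609). That change passed with the authors' scaling (-0.23, 0.0098) and with only the WT libraries fitted (-0.17, 0.00229). KIF4B is a near-identical copy of KIF4A, and how reads were shared between them is not known, so both are uncertain.

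KIF14 (chromosome 1, 200551497 to 200620735, minus strand), which acts with citron kinase late in cytokinesis, was the exception among the mitotic genes. In EV it had 42.3, 43.6 and 44.1 CPM untreated and 45.0, 52.7 and 51.9 treated, without overlap, a log2 fold change of 0.20 ± 0.0771 (edgeR adjusted p = 0.0357). This call was lost in 8 of 12 alternatives, among them DESeq2, the authors' scaling, no filter on low counts, and leaving out any EV library but treated replicate 1 (adjusted p up to 0.147). WT had 41.5, 38.8 and 36.3 before and 37.3, 39.4 and 36.2 after CPM and MUT 39.4, 42.8 and 37.5 before and 40.8, 42.6 and 45.7 after, overlapping in both, with changes of -0.05 and 0.11 (adjusted p 0.636 and 0.234).

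**Figure D3:**
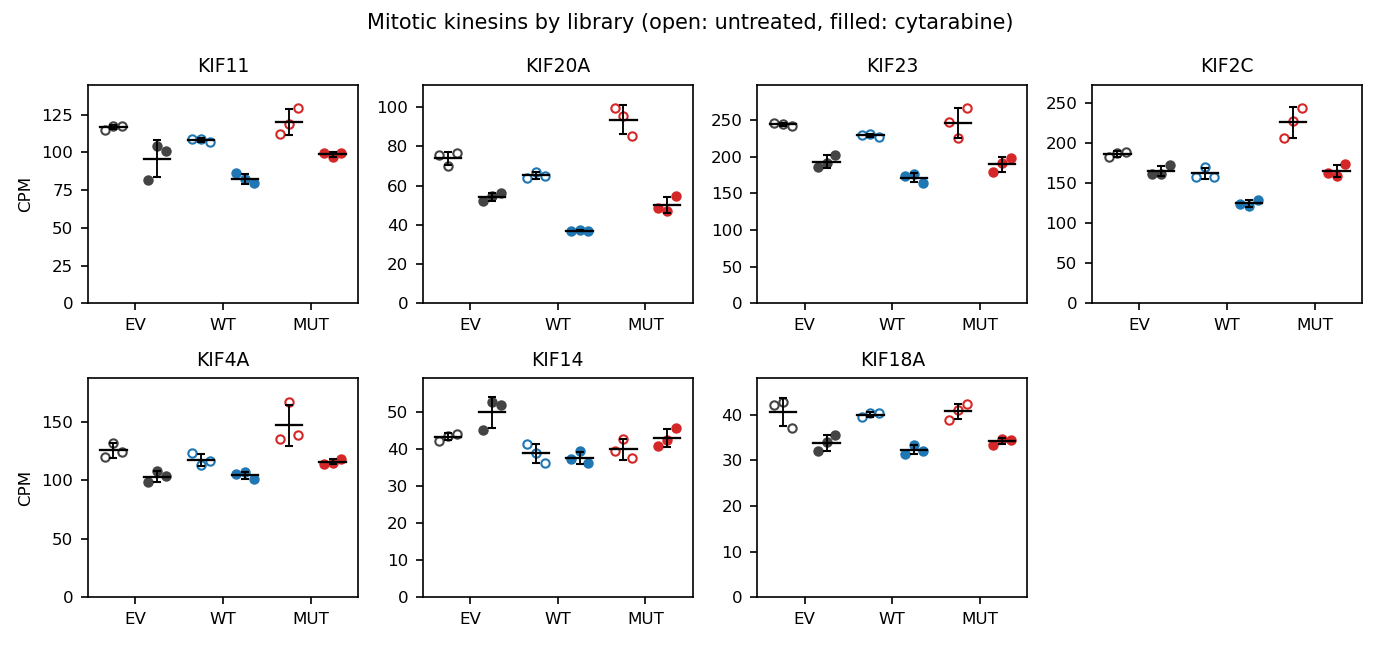
CPM of the 7 mitotic kinesins in each of 18 libraries, untreated (open) and after cytarabine (filled), by line, with the mean and SD of 3 libraries. For every gene but KIF14 the treated libraries of a line lie below its untreated ones, and untreated MUT has the highest untreated mean for each of them. For KIF11, KIF23 and KIF18A, however, untreated MUT and untreated EV libraries overlap.

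None of the 8 other division kinesins rose: 4 fell in EV, 6 in WT and 3 in MUT, where 22.9%, 22.7% and 25.9% of all genes fell, with median log2 fold changes of -0.20, -0.32 and -0.21. Over the alternatives 3 to 6 fell in EV, 5 to 7 in WT and 2 to 6 in MUT. In MUT 5 fell with DESeq2, with RLE factors and with the authors' scaling. KIF22, a chromokinesin that pushes chromosome arms away from the poles, changed by -0.33, -0.38 and -0.49 in log2 terms over EV, WT and MUT, to means of 76.0, 70.3 and 85.4 CPM against 95.9, 91.6 and 120.0 untreated. KIF2A, a depolymerase of spindle poles, fell by 0.22, 0.27 and 0.18. Its EV call was lost without untreated EV replicate 3 (edgeR adjusted p = 0.0599), and its MUT call was lost in 4 alternatives: with only the MUT libraries fitted, without treated MUT replicate 2 or 3 and without untreated MUT replicate 1 (adjusted p up to 0.14). DIMT1 lies on the opposite strand of 18.7% of the KIF2A exon length, and its own log2 fold changes were -0.80, -0.74 and -0.68. Since the handling of strand is not given in the sources used here, its part in the KIF2A values was not tested.

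KIF18B, which controls astral microtubules, had 93.2, 102 and 103 CPM untreated and 75.4, 55.7 and 68.5 treated in EV, and 97.0, 104 and 101 before and 67.7, 67.6 and 72.2 after in WT, falling by 0.58 and 0.54 on the log2 scale (edgeR adjusted p 0.00034 and 0.000595). MUT libraries overlapped, at 114, 80.3 and 86.7 before and 70.7, 80.6 and 84.6 after CPM, and the change of -0.25 had an adjusted p of 0.0645. It passed with DESeq2 (adjusted p = 0.0278), and in edgeR with RLE factors (0.029) or the authors' scaling (0.0152). It also passed without untreated MUT replicate 2 (-0.39, edgeR adjusted p = 0.00552) or 3 (-0.34, 0.0221). KIF15, a spindle motor that can stand in for KIF11, fell by 0.37 in EV and 0.51 in WT (edgeR adjusted p 0.000558 and 1.91e-05). In MUT it had -0.17 (0.0717). That value passed with DESeq2 (0.0336), and in edgeR with RLE factors (0.026), the authors' scaling (0.0079) or without untreated MUT replicate 3 (-0.24, 0.0135).

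KIFC1, a minus-end motor that focuses spindle poles, fell by 0.23 in WT and 0.25 in MUT (edgeR adjusted p 0.00499 and 0.00273). Its EV value of -0.14 (adjusted p = 0.0776) passed with the authors' scaling (-0.21, 0.0128) and without treated EV replicate 1 (-0.19, 0.0315). KIF20B, a motor of cytokinesis, was called in WT, at -0.22 (adjusted p = 0.0321), and lost that call without any 1 of the 6 WT libraries. It had -0.17 in EV and -0.04 in MUT. The EV value passed with the authors' scaling (-0.25, 0.0118) and without treated EV replicate 2 (-0.22, 0.049). KIF24, a kinesin of centrioles, was called in no line (-0.08, -0.06 and 0.20), but in MUT without untreated MUT replicate 2 (0.31, 0.0128). KIF4B had 0.26, -0.48 and -0.55 and was called in MUT without untreated MUT replicate 3 (-1.02, 0.0216) and in WT with only the WT libraries fitted (-0.48, 0.0397).

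The largest rise among transport kinesins was that of KIF5C in EV and WT and of KIFC2 in MUT, both genes best known from neurons. KIF5C (chromosome 2, 148875250 to 149026760, plus strand), a kinesin-1 heavy chain, had 15.5, 18.3 and 15.4 CPM untreated and 39.7, 44.3 and 43.2 treated in EV. WT libraries had 15.5, 14.7 and 16.1 before and 37.2, 39.6 and 35.6 after, and MUT libraries 13.9, 18.3 and 15.7 before and 35.5, 34.8 and 34.8 after CPM. No treated library came near an untreated one, and log2 fold changes were 1.37 ± 0.0951, 1.28 ± 0.0948 and 1.14 ± 0.0950 (SE; edgeR adjusted p 1.65e-09, 3.09e-09 and 8.72e-09), or 2.58, 2.43 and 2.20 times the untreated level. KIF5A, its neuronal relative, had 7.13, 7.83 and 8.55 before and 13.5, 11.6 and 13.5 after CPM in EV, 4.12, 5.56 and 4.56 before and 8.35, 6.81 and 8.51 after in WT, and 6.67, 6.67 and 4.91 before and 11.9, 11.8 and 10.7 after in MUT. It rose without overlap by 0.72, 0.74 and 0.92 on the log2 scale (edgeR adjusted p 0.000296, 0.000383 and 2.1e-05).

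KIF5B (chromosome 10, 32009010 to 32056432, minus strand), the abundant kinesin-1 heavy chain, went the other way. It had 296, 289.8 and 287 CPM untreated and 203, 274 and 246 treated in EV, 262, 259 and 267 before and 215, 215 and 207 after in WT, and 221, 252 and 216 before and 197, 197 and 207 after in MUT, without overlap in any line. The log2 fold change was -0.27 in EV (edgeR adjusted p = 0.0108), -0.31 in WT (0.00469) and -0.20 in MUT (0.0529). Treated EV replicate 1 decided the EV call, with -0.16 (0.0736) without it, and without untreated MUT replicate 3 the MUT value passed, at -0.27 (0.00975). With all libraries the MUT value passed with DESeq2 (0.0144), and in edgeR with RLE factors (0.021), the authors' scaling (0.00546) or no filter on low counts (0.0475).

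KIFC2, a minus-end motor described in neurons, had 27.5, 27.9 and 27.4 CPM untreated and 78.4, 55.2 and 67.2 treated in EV, 36.0, 40.6 and 34.2 before and 71.3, 69.1 and 77.3 after in WT, and 30.6, 19.0 and 30.4 before and 69.9, 63.2 and 81.9 after in MUT. The log2 fold changes were 1.28 ± 0.146, 0.97 ± 0.142 and 1.42 ± 0.146 (SE; edgeR adjusted p 7.1e-07, 1.3e-05 and 1.23e-07), with no overlap. FOXH1 on the opposite strand shares 17.8% of the KIFC2 exon length and had at most 0.495 CPM as a group mean. Its part in the KIFC2 values was not tested. KIFC3, the other minus-end kinesin of this group, linked to cell junctions, fell in each line instead, by 0.38, 0.41 and 0.45 (adjusted p 0.000127, 5.66e-05 and 1.33e-05): untreated means were 163 ± 0.400, 172 ± 3.61 and 166 ± 10.3 CPM and treated means 125 ± 1.20, 129.5 ± 10.4 and 121 ± 7.58 (SD, n = 3).

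KIF13B, a motor of vesicles, had 43.0, 40.5 and 41.8 CPM untreated and 77.6, 87.1 and 72.6 treated in EV, 57.9, 54.5 and 59.8 before and 105, 99.4 and 102 after in WT, and 36.4, 51.3 and 31.3 before and 79.6, 77.5 and 69.3 after in MUT. WT was the highest line in both states, and the gene rose by 0.92, 0.83 and 0.93 on the log2 scale (edgeR adjusted p 3.65e-06, 9.19e-06 and 2.18e-06). KIF21B, a regulator of microtubule growth in neurons and lymphocytes, had 21.8, 26.3 and 25.4 CPM before and 32.1, 36.1 and 35.7 after in EV, 19.1, 17.9 and 16.8 before and 34.7, 31.7 and 34.7 after in WT, and 19.9, 21.6 and 15.0 before and 38.7, 38.2 and 37.8 after in MUT, log2 fold changes of 0.50 ± 0.106, 0.91 ± 0.107 and 1.02 ± 0.107 (adjusted p 0.000631, 1.04e-06 and 1.5e-07). KIF21A, its relative, had -0.02 and 0.03 in EV and WT and rose in MUT by 0.32 (adjusted p = 0.00479).

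Kinesin-2 motors drive transport in cilia and axons, and their genes were uneven. KIF3C (chromosome 2, 25926596 to 25982750, minus strand) had 91.2, 88.5 and 87.4 CPM untreated and 136, 153 and 139 treated in EV, 78.6, 75.2 and 86.3 before and 120.3, 120.0 and 116 after in WT, and 138, 174 and 100.2 before and 214, 184 and 198 after in MUT. It rose by 0.68, 0.57 and 0.53 on the log2 scale (edgeR adjusted p 0.000176, 0.000896 and 0.00124), and in MUT by 0.32, still called, without untreated MUT replicate 3. KIF3A, its partner subunit, rose by 0.35 in EV and 0.40 in MUT (adjusted p 0.000701 and 0.000135) and had 0.12 in WT (0.199). KIF3B, the alternative partner of KIF3A, was called in no line, with 95% intervals of -0.19 to 0.25 in EV, -0.15 to 0.29 in WT and -0.21 to 0.23 in MUT. These intervals rest on the spread shared by all groups. Untreated KIF3B libraries had 153, 205 and 133 CPM in MUT and 158, 159 and 171 in WT.

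KIF17 (chromosome 1, 20664014 to 20718018, minus strand), the kinesin-2 that works as a homodimer, had 6.02, 6.54 and 5.04 CPM before and 8.31, 7.49 and 7.65 after in EV, 3.87, 4.18 and 4.78 before and 9.09, 9.40 and 8.61 after in WT, and 4.26, 3.58 and 3.77 before and 6.20, 8.24 and 7.06 after in MUT. It rose by 0.41, 1.08 and 0.88 on the log2 scale (edgeR adjusted p 0.0194, 3.84e-06 and 3.7e-05), but the EV call was lost without treated EV replicate 1 (0.0645) or untreated EV replicate 3 (0.106). KIF16B, a motor of early endosomes, rose by 0.64 in WT and 0.66 in MUT (adjusted p 0.00429 and 0.00305). In EV it had 0.36 (0.0929), which passed with only the EV libraries fitted (0.37, 0.0493). It also passed without treated EV replicate 1 (0.47, 0.049) or untreated EV replicate 2 (0.51, 0.0409).

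KIF1A, the motor of synaptic vesicle precursors, had different levels in the 3 lines. EV libraries had 17.4, 21.4 and 17.4 CPM untreated and 13.8, 19.2 and 15.8 treated, which overlapped, with a log2 fold change of -0.21 ± 0.140 (edgeR adjusted p = 0.239). WT rose from 6.72, 7.35 and 6.38 to 10.9, 11.9 and 11.3 CPM, by 0.73 (adjusted p = 0.00046). MUT had 5.77, 6.98 and 4.45 before and 8.17, 7.13 and 6.80 after, a change of 0.37 ± 0.157 (0.0548). The MUT change passed with the replicate number as a block (0.38, 0.0255) and without untreated MUT replicate 2 (0.48, 0.0155).

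KIF1B, KIF1C and KIF13A, all vesicle motors, were called in no line as designed. Their log2 fold changes in EV, WT and MUT were 0.05, 0.08 and 0.13 for KIF1B, -0.18, -0.06 and -0.12 for KIF1C and -0.32, -0.09 and -0.02 for KIF13A. Without treated EV replicate 2, the EV values of KIF13A (-0.43, edgeR adjusted p = 0.0212) and KIF1C (-0.27, 0.0413) passed, as did KIF13A in MUT without untreated MUT replicate 3 (-0.24, 0.0335). Both EV values also passed with the authors' scaling (0.0168 and 0.0309) and with only the EV libraries fitted (0.0116 and 0.0484). That of KIF13A passed with the replicate number as a block too (0.0403). The summed neuronal markers were also higher after treatment in each line, with the values given above, and so were those of 2 other cell types. In EV, WT and MUT, the 3 endothelial markers summed to 2.52 to 3.10, 1.15 to 1.43 and 2.91 to 4.46 CPM before and 5.24 to 6.31, 3.15 to 3.89 and 8.04 to 10.6 after, and the 4 epithelial markers to 5.49 to 6.48, 2.75 to 3.53 and 4.09 to 6.40 before and 8.997 to 9.71, 3.89 to 5.71 and 7.37 to 7.56 after. The 8 markers of bone-forming cells and osteosarcoma were lower in sum, at 3747 to 3819, 4095 to 4162 and 3853 to 4212 CPM before and 2809.9 to 2937, 2939.6 to 3079.8 and 2924 to 3299 after. The part of these shifts in the rises of KIF5A, KIF5C, KIF17, KIF21B and KIFC2 was not tested.

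**Figure D4:**
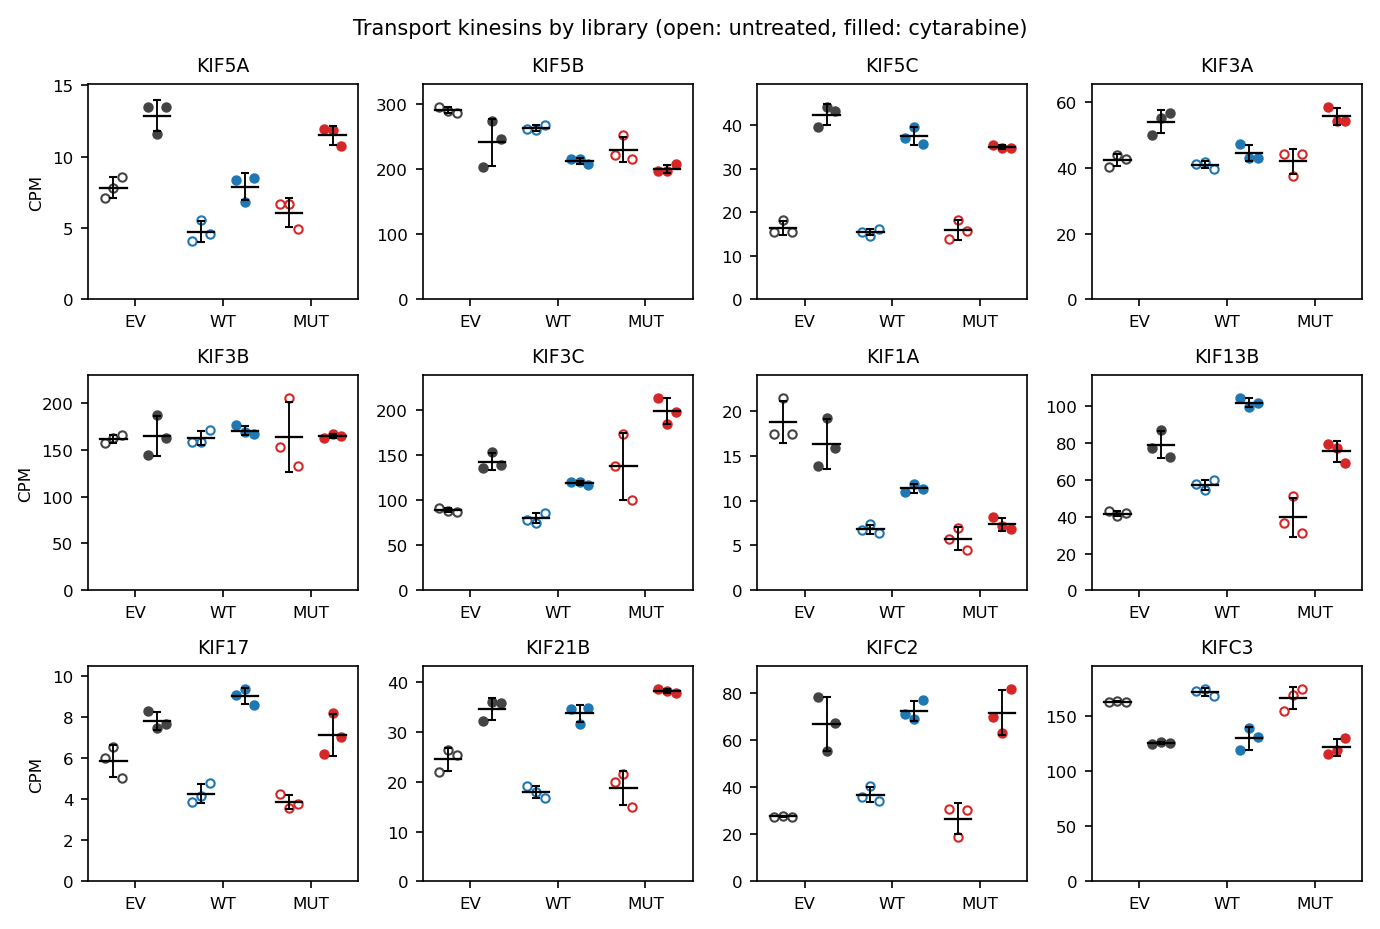
CPM of 12 transport kinesins in each of 18 libraries, untreated (open) and after cytarabine (filled), by line, with the mean and SD of 3 libraries. KIF5C and KIFC2 show wide gaps between open and filled points in all 3 lines, KIF5B and KIFC3 are lower after treatment, and untreated KIF1A is highest in EV.

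The remaining members were mostly low. KIF19, which limits the length of cilia, had 11, 9 and 10 counts untreated and 44, 41 and 57 treated in EV, 1, 6 and 0 before and 13, 19 and 17 after in WT, and 4, 3 and 4 before and 66, 29 and 36 after in MUT. Every treated library exceeded every untreated one of its line, and the log2 fold changes of 1.99 ± 0.440, 2.67 ± 0.591 and 3.21 ± 0.511 (SE; edgeR adjusted p 0.000917, 0.000905 and 2.73e-05) are imprecise at such counts; in WT the value ran from 2.14 to 4.66 over the alternatives. KIF9, of ciliary axonemes, fell by 0.42 in EV and 0.71 in MUT (adjusted p 0.00853 and 7.86e-05) and had -0.30 in WT (0.0508). The WT value of KIF9 passed with the authors' scaling (0.0196), with only the WT libraries fitted (0.0321) and without untreated WT replicate 3 (0.0444). The antisense gene KIF9-AS1 shares 14.8% of its exon length, as RPL12P1 shares 14.0% of KIFC1 and TICRR 10.8% of KIF7 on the opposite strand. KIF7, a regulator of Hedgehog signalling in cilia, had 0.18 and 0.03 in EV and WT and rose in MUT by 0.25 (0.0119), a call lost with the authors' scaling, with only the MUT libraries fitted and without untreated MUT replicate 3 (0.15, 0.109). Its EV value passed with only the EV libraries fitted (0.19, 0.0466).

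KIF6, KIF26A, KIF26B and KIF27 were called in no line. In MUT, single libraries decided this for KIF6, which had -0.69 and passed without untreated MUT replicate 2 (-1.04, edgeR adjusted p = 0.00934), and for KIF26A, which had 0.26 and passed without that library (0.32, 0.0279) or without treated MUT replicate 2 (0.32, 0.0463). KIF27 passed in MUT with the replicate number as a block (0.46, 0.0421).

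Summed over genes, the mitotic kinesins were lower after treatment relative to the transport kinesins in each line. On the scale of CPM per kb, the mitotic sum divided by the transport sum was 0.895 to 0.907 in the 3 untreated and 0.682 to 0.768 in the 3 treated EV libraries. The ratio was 0.792 to 0.844 and 0.597 to 0.608 in WT, and 0.923 to 1.21 and 0.696 to 0.739 in MUT. No treated library reached an untreated one of its line, and untreated MUT spread most. In plain CPM the mitotic sum was 823 to 838 untreated and 656 to 723 treated in EV over the libraries, 749.6 to 769 and 579 to 597 in WT, and 879 to 944 and 679 to 725 in MUT. The transport sum was 1473 to 1491 and 1422 to 1665, 1461 to 1511 and 1551 to 1567, and 1273 to 1649.6 and 1526 to 1564 CPM. Within that sum the abundant KIF5B and KIFC3 were lower after treatment, while the still more abundant KIF1C was called in no line. Some scarcer members, such as KIF5C and KIFC2, were higher, and others, such as KIF13A, were not.

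**Figure D5:**
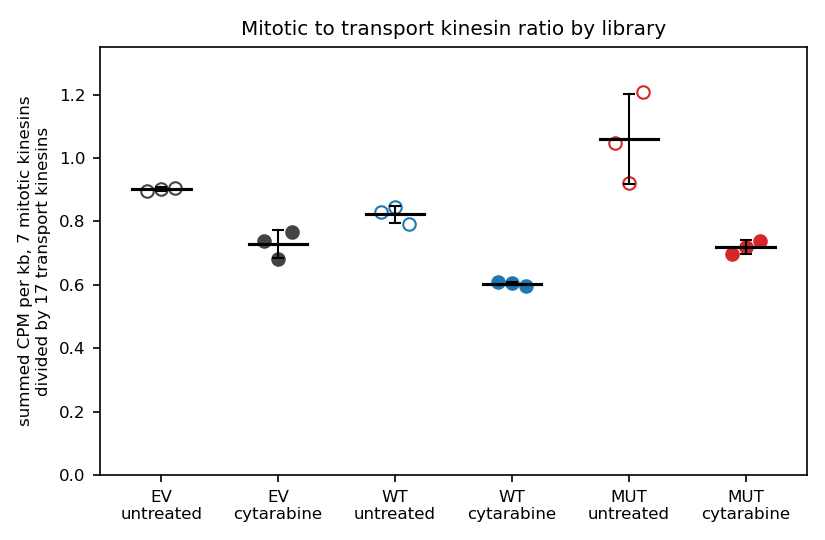
Summed CPM per kb of the 7 mitotic kinesins divided by that of the 17 transport kinesins in each of 18 libraries, by line and treatment, with the mean and SD of 3 libraries. Treated libraries of a line lie below its untreated ones, and treated WT is the lowest group, at 0.597 to 0.608.

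Whether the lines responded differently was asked of the differences between their cytarabine effects. No member passed in MUT minus EV, MUT minus WT or WT minus EV by the edgeR quasi-likelihood test. Of all genes 0.214% passed in MUT minus EV (0.154% higher and 0.0604% lower), 1.00% in MUT minus WT (0.510% and 0.494%) and 0.285% in WT minus EV (0.143% and 0.143%). At an unadjusted p under 0.05 there were 7, 6 and 7 of 39 members, beside 15.8%, 15.4% and 9.96% of all genes, and DESeq2 called 3, 0 and 1 members. The comparisons share the libraries of the lines they have in common.

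KIF20A came closest in MUT minus EV, with a difference of -0.45 ± 0.100 (SE; 95% interval -0.65 to -0.26; edgeR adjusted p = 0.0576, and 0.000987 to 0.265 over the alternatives). It passed with DESeq2 (0.000987), with RLE factors (0.0414), with the authors' scaling (0.0439) and without untreated MUT replicate 1 (0.0342), 2 (0.0327) or 3 (0.0102). In the same comparison KIF21B differed by 0.53 ± 0.150 (adjusted p = 0.12) and passed with DESeq2 (0.0451) and without untreated MUT replicate 2 (0.0415). KIF2C differed by -0.28 ± 0.0934 (0.174) and passed with DESeq2 (0.0339) and without untreated MUT replicate 1 (0.039), which also let KIF21A pass (0.45, 0.0333).

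In WT minus EV, KIF1A differed by 0.94 ± 0.206 (SE; 95% interval 0.54 to 1.34; edgeR adjusted p = 0.0648, and 0.00543 to 0.218 over the alternatives). It passed with DESeq2 (0.00543), with only the WT and EV libraries fitted (0.0107), with the replicate number as a block (0.0311) and without treated EV replicate 2 (0.0295). KIF20A differed by -0.37 ± 0.101 there (adjusted p = 0.189, or 0.0159 with only those libraries fitted). In MUT minus WT the smallest adjusted p was 0.124, for KIF15, with a difference of 0.34 ± 0.108; KIF21A passed without untreated MUT replicate 1 (0.41, 0.045).

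Levels differed between the lines for some members. Without treatment 6 members were higher and 6 lower in MUT than in EV, where 19.9% of all genes were called (9.88% higher and 10.0% lower). There were 5 higher and 3 lower in MUT than in WT (21.2% of all genes, 11.7% and 9.54%), and 1 higher and 6 lower in WT than in EV (11.7%, 4.30% and 7.36%). KIF1A stood out with 18.7 ± 2.35 CPM in EV, 6.82 ± 0.495 in WT and 5.73 ± 1.26 in MUT (SD, n = 3), log2 differences from EV of -1.46 ± 0.149 in WT and -1.71 ± 0.153 in MUT (SE; edgeR adjusted p 1.65e-06 and 4.64e-07). KIF5A and KIF7 were lower in WT than in EV, by 0.72 and 0.35 (adjusted p 0.00296 and 0.00656).

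Untreated MUT was above both other lines, past the threshold, in 3 mitotic kinesins. KIF20A was 0.34 above EV and 0.52 above WT on the log2 scale (edgeR adjusted p 0.00219 and 3.8e-05), KIF2C 0.28 and 0.48 (0.00623 and 4.87e-05), and KIF4A 0.23 and 0.32 (0.0362 and 0.0041). The KIF4A call against EV was lost in 4 alternatives: with only those libraries fitted, without untreated EV replicate 1 or 3 and without untreated MUT replicate 2 (down to 0.16, adjusted p up to 0.228). The transport gene KIF3C was 0.63 and 0.78 higher in the same comparisons (0.00174 and 0.000233). With only the libraries of the groups compared in the fit, 1 call was left between MUT and EV (KIF1A) and 3 between MUT and WT (KIF20A, KIF2C and KIF3C), and WT against EV had 14. Of 27 calls between untreated lines, 7 held in each alternative run: these same 4, KIF1A in WT against EV, and KIF5A and KIF7 in WT against EV.

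After cytarabine, 1 member was higher and 3 lower in MUT than in EV (14.0% of all genes called, 6.85% higher and 7.13% lower), 10 higher and 3 lower in MUT than in WT (19.8%, 10.4% and 9.48%), and 1 higher and 8 lower in WT than in EV (16.5%, 7.41% and 9.12%). KIF20A had 37.1 ± 0.275 CPM in treated WT, 54.3 ± 2.16 in treated EV and 50.1 ± 4.08 in treated MUT (SD, n = 3). WT was 0.55 below EV and MUT 0.43 above WT on the log2 scale (edgeR adjusted p 3.29e-05 and 0.000292). KIF2C was 0.41 lower and 0.41 higher in the same comparisons (0.00029 and 0.000242), and KIF14 0.41 lower in WT than in EV (0.00115). KIF1A was lowest in MUT, 1.14 below EV and 0.62 below WT (4.01e-05 and 0.00548), and KIF3C was 0.74 higher in MUT than in WT (0.000314). Of 26 calls between treated lines, 12 held in each alternative run, including all those just named.

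Partners of the kinesins were counted from lists of known genes. Of 24 genes of mitosis and cytokinesis, 11 fell and 2 rose in EV, 17 and 1 in WT, and 12 and 3 in MUT, where 22.9%, 22.7% and 25.9% of all genes fell and 26.1%, 26.3% and 30.4% rose, with median log2 fold changes of -0.19, -0.32 and -0.23. PLK1, a kinase of mitotic entry and cytokinesis, fell most in each line, by 0.95, 1.11 and 1.22 on the log2 scale (edgeR adjusted p 8.62e-10, 9.56e-11 and 2.63e-11). CDCA8, a subunit of the complex that KIF20A carries, fell by 0.57 in EV and 0.70 in WT, and CCNB1, the mitotic cyclin, by 0.89 in MUT. PRC1, partner of KIF4A, fell by 0.24, 0.35 and 0.39. RACGAP1, partner of KIF23, fell by 0.23 in WT and 0.30 in MUT and had -0.12 in EV (0.0863). CENPE, a kinetochore kinesin whose symbol is outside the family pattern, was called in no line (0.11, -0.07 and -0.02). Rises were seen for TOP2A (0.25 in EV and 0.26 in MUT), NUSAP1 (0.15 in EV and 0.28 in WT) and CDK1 (0.29 in MUT).

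MuvB complexes, B-MYB, FOXM1 and NF-Y are known to act at promoters of late cell cycle genes that hold such motifs. Their binding to the promoters printed above was not tested. Of 15 genes of these factors, 7 fell and 0 rose in EV, 5 and 0 in WT, and 4 and 2 in MUT, beside 22.9%, 22.7% and 25.9% of all genes lower and 26.1%, 26.3% and 30.4% higher, with medians of -0.23, -0.11 and -0.12. E2F4, a partner of MuvB in its repressive form, fell by 0.99, 0.92 and 0.86, and NFYA, a subunit of NF-Y, by 0.84, 0.72 and 0.73 on the log2 scale. RBL2, a partner of MuvB in its repressive form, and LIN37, a subunit of MuvB itself, rose by 0.38 and 0.46 in MUT. FOXM1 was called in no line (-0.09, 0.00 and -0.04).

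Cargo adaptors and light chains link transport kinesins to their loads. Of 22 tested, 3 fell and 8 rose in EV, 1 and 10 in WT, and 1 and 9 in MUT, beside 22.9%, 22.7% and 25.9% of all genes lower and 26.1%, 26.3% and 30.4% higher, with medians of 0.11, 0.18 and 0.11. FEZ1, an adaptor of kinesin-1 in axons, rose by 1.74 ± 0.151, 1.97 ± 0.156 and 1.75 ± 0.154 (SE), in EV from a mean of 5.16 to 17.2 CPM. MAPK8IP2, a scaffold for kinesin-1, rose by 1.85 in EV and 1.28 in MUT, and KLC3, a light chain, by 1.63 in WT. RHOT2, which ties motors to mitochondria, fell by 0.38, 0.30 and 0.36. KIFAP3, the accessory subunit of the KIF3 motors, rose in EV by 0.43 and had -0.13 and 0.04 in WT and MUT, and the light chain KLC1 was called in no line.

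Dynein and dynactin, the main minus-end machinery, were counted beside them. Of 23 tested genes, 7 fell and 3 rose in EV, 12 and 1 in WT, and 15 and 3 in MUT, beside 22.9%, 22.7% and 25.9% of all genes lower and 26.1%, 26.3% and 30.4% higher, with medians of -0.19, -0.20 and -0.25; whether these counts differ from those of the transport kinesins was not tested. DYNLT3, a dynein light chain, rose by 0.81, 0.68 and 0.78. PAFAH1B1, a dynein regulator, fell by 0.49 in EV and 0.50 in WT, DYNC1LI1, a light intermediate chain, by 0.48 in EV and 0.59 in MUT, and DCTN6, a dynactin subunit, by 0.51 in WT and 0.63 in MUT.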

How the data were processed

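RNA of 18 libraries was analysed from the authors' deposited table of estimated counts per gene symbol, which is not normalized and was rounded here to whole numbers. A second deposited table, of normalized signal values for 19591 genes, equals the estimated count multiplied by a number that is constant within a library, plus 1; the authors' factors recovered from this served as an alternative scaling. CASAVA, STAR 2.6.1d and hg38 are named in the submitters' processing notes; the counting tool and its handling of strand are not given in the sources used here. Library totals were 15.4 to 21.9 M counts, and intervals of single values cover the spread between replicates only.

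Groups were taken from the sample titles. Counts were filtered with filterByExpr in edgeR 4.0.16 (R 4.3.3), scaled by TMM, and fitted over all 18 libraries with 6 group coefficients (quasi-likelihood test, Benjamini-Hochberg adjustment over 18226 genes, threshold 0.05, 12 contrasts). SE was computed as the size of the log2 fold change over the root of its F statistic, and 95% intervals are 1.96 SE either side. CPM use the TMM-scaled library size; CPM per kb divide by the union exon length of GENCODE release 44. The alternatives were DESeq2 1.42.0, RLE factors, the authors' factors, no filter, only the groups compared, the replicate number as a block, and each library left out. The script was tested on simulated data. Tables were made with pandas 2.3.3 in Python 3.11.15.

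All members could be named; of the partner lists, at most the 2 largest rises and 2 largest falls per line, and CENPE, RACGAP1, PRC1, FOXM1, KLC1, KIFAP3 and DNMT3A whatever their values. The members and lists were chosen with earlier results of these data known. One further list of cell type markers is not reported here.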

Additional observations from a re-analysis of the deposited data

How the results depend on the processing

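Each result was recomputed under 6 alternatives over all libraries and with single libraries left out, and no called value of a member changed sign. Values that had not passed did so in places, such as the KIF11 difference in MUT minus EV (-0.10 to 0.07) and the KIF19 difference in MUT minus WT (-1.49 to 1.07). The median of the remaining members turned from 0.03 to -0.04 in EV and from 0.03 to -0.03 in WT with the authors' factors, as did that of all genes (-0.02 in EV, -0.04 in WT and -0.03 in MUT). Without untreated EV replicate 3 the EV median of the remaining members was -0.07. Their WT median was -0.08 without treated WT replicate 2 and -0.10 without untreated WT replicate 1. Of 69 calls of a cytarabine effect on a member, 61 held in each alternative run. Called differences of effect in MUT minus EV were 3 with DESeq2, 1 with RLE factors, 1 with the authors' factors and 0 to 3 without single libraries; in MUT minus WT 0 to 1 without single libraries; in WT minus EV 1 with DESeq2, 2 with only the groups compared and 0 to 1 without single libraries. Untreated calls were 1 for MUT minus EV, 3 for MUT minus WT and 14 for WT minus EV with only the groups compared, and 3 to 6 for WT minus EV without single libraries. Treated calls were 2 for MUT minus EV without the filter on low counts, and without single libraries 1 to 4 for MUT minus EV, 8 to 11 for MUT minus WT and 5 to 10 for WT minus EV. The cause of these shifts was not tested. Some of these fits hold fewer libraries. The mitotic minus transport median was -0.40 in EV and -0.46 in WT with the remaining members added to the transport list, and without single libraries -0.63 to -0.58 in EV, -1.03 to -0.85 in WT and -0.82 to -0.67 in MUT. With the replicate number as a block, 1 member was called in WT minus EV; same-numbered libraries correlated by -0.18 to 0.33 across genes in their deviations, so the numbers are not taken to pair the libraries. Scarce members such as KIF19, KIF26B and KIF6 are limited by their counts.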
